A study of Mus musculus with 4 samples.

Results

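Amino acid transporters are membrane carriers that move amino acids between the medium, the cytosol and the lysosome. Most belong to gene families of solute carriers, in which a member is known by its substrates: cationic (lysine, arginine), neutral, anionic (glutamate, aspartate) or cystine. Several light chains of the Slc7 family reach the cell surface only when bound to a heavy chain of the Slc3 family. Many of these genes are known targets of Atf4, the transcription factor of the amino acid response, and cystine uptake through Slc7a11 also responds to oxidative stress.

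The set comprised 47 genes out of 30142 with a measured row. They were chosen by symbol: every measured member of the Slc1a, Slc3a, Slc7a, Slc36a, Slc38a and Slc43a families, together with Slc6a6, Slc6a9, Slc6a14, Slc6a15 and Slc6a20a. By known substrate, 20 were placed as neutral, 6 as anionic, 3 as cationic, 3 as cystine carriers or their partner and 4 as carriers of both neutral and cationic amino acids. Slc3a2 was kept apart as a heavy chain shared by several light chains, and 10 genes were not assigned. Among the latter, Slc43a3 is known as a nucleobase carrier and entered the set by its family symbol alone.

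The samples were primary keratinocytes of C57BL/6J mice aged 1 week, either wild type or deficient in Glut1 (gene Slc2a1, the main glucose uptake carrier) in keratinocytes. The labels do not name the promoter that drove the deletion. Cells of 4 mice per genotype grew in a serum-free keratinocyte medium with 0.05 mM CaCl2, hydrocortisone, EGF, bovine pituitary extract and insulin. After 3 days they were reseeded at 2000000 cells, and on the following day the RNA of 2 plates of a genotype, joined at random, was hybridised to 1 array, which gave 2 arrays per genotype. Values are log2 signals, differences are Glut1-deficient minus wild type with the moderated standard error (SE, n = 2 per group), and a gene was called changed at an adjusted p under 0.05 in limma. Since each array pooled plates, its p-values reflect only how these 4 pools scatter, including any technical scatter, and precision is limited by having 2 arrays per genotype.

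The targeted gene Slc2a1 fell, from 13.26 and 13.40 in wild type to 12.09 and 12.01 in the deficient cells (log2 fold change -1.28, SE 0.10, limma adjusted p = 0.00754; 0.0508 without Glut1-deficient replicate 1, in a range over the alternatives of 0.00545 to 0.0648). All 8 keratinocyte markers examined lay above background on every array, with 1 lower (Col17a1, of the basal cell's anchoring junctions) and none higher. Their summed log2 level was 121.0 and 121.8 in wild type against 120.0 and 118.8 in deficient cells (median log2 fold change -0.38), and Krt5, Krt14, Itga6 and Itgb4 were also lower on both deficient arrays without being called. Perp, Trp63 and Dsp went the other way, higher on both deficient arrays and not called (log2 fold changes 0.52, 0.18 and 0.15). Of 9 melanocyte markers, 5 were above background on all arrays and 1 was called higher, and their summed log2 level was 50.7 and 49.4 in wild type against 59.3 and 54.2 in deficient cells. Dct, Tyrp1, Mlana and Mitf, above background, were higher on both deficient arrays and not called (log2 fold changes 1.84, 1.49, 1.06 and 0.43). Sox10 and Slc45a2 overlapped between genotypes (0.07 and 0.04). For 7 fibroblast markers the sums were 30.5 and 30.5 against 33.4 and 34.5 (1 higher), for 7 immune markers 29.3 and 29.6 against 31.0 and 31.7 (1 higher) and for 6 endothelial markers 25.7 and 26.5 against 30.1 and 29.0 (1 higher). Median log2 fold changes were 0.48 for melanocyte, 0.37 for fibroblast, -0.02 for immune and 0.04 for endothelial markers. At or below background on all arrays were 2 of the 7 fibroblast, 6 of the 7 immune and 4 of the 6 endothelial markers. Pecam1 (endothelial), above background on 1 array, was lower on both deficient arrays and not called (-0.32). The called markers were Pmel (melanocyte, log2 fold change 1.04), Dcn (fibroblast, 1.68), Cd68 (immune, 1.95) and Kdr (endothelial). Dcn lay below background on both wild-type arrays (4.08 and 3.82), so its fold is only a bound. The higher immune and endothelial sums came mainly from Cd68 and Kdr. Kdr measured 6.11 and 6.34 against 10.14 and 9.51, a log2 fold change of 3.60, and stayed called whichever array was left out. The calls of Pmel, Dcn, Cd68 and Col17a1 were lost when either wild-type array was dropped, those of Pmel and Col17a1 also without the first deficient array and that of Col17a1 without the second, with adjusted p up to 0.140, 0.115, 0.119 and 0.0988 over the alternatives. Of the other defining genes, Col1a1 and Pdgfrb (fibroblast) were above background on all arrays, with log2 fold changes of 0.22 and 0.42 and no call, and Ptprc (immune), Cdh5 (endothelial), Lum and Col3a1 (fibroblast) lay at or below background on all arrays. No Schwann or muscle marker was called among 3 and 6 measured, and their sums ran from 12.7 to 12.9 and from 33.5 to 34.7. The part of other cell types in the transporter values was not tested. In bulk RNA such as this, fewer cells of a type and less RNA per cell cannot be told apart.

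Of the 47 transporter genes 12 rose, 1 fell and 34 were not called. Over all 30604 rows tested, 4.11% were called higher and 3.11% lower, or 7.22% in either direction, against 25.5% higher and 2.13% lower in the transporter set. The arrays of the genotypes did not overlap, with deficient cells higher, in 20 of the 47 genes (42.6%, against 23.8% of all rows), and with deficient cells lower in 9 (19.1%, against 25.8% of all rows). The median log2 fold change of the 47 genes was 0.03, against -0.01 for all rows. The shares higher, called or separated, thus lay above those of all rows, the shares lower lay below them, and the medians were close. The background floor, set on each array at the 95th percentile of its 23 background controls, lay between 4.36 and 4.87. On all 4 arrays 22 genes were above it and 23 were at or below it, and 2 (Slc3a1 and Slc7a4) were above it on 1 array each. The 13 called genes were among the 22. The median of the 47 genes thus includes 23 genes at background on all arrays. Uncalled genes among the 22 had log2 fold changes from -0.36 to 0.63. Over the whole value table the array medians were 4.19 to 4.24, below the lowest floor. How many of the 30604 rows lay at background was not counted. Among rows at or above the median of row means, 3043 were called in either direction, as were 13 of the 22 members tested.

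**Figure D1:**
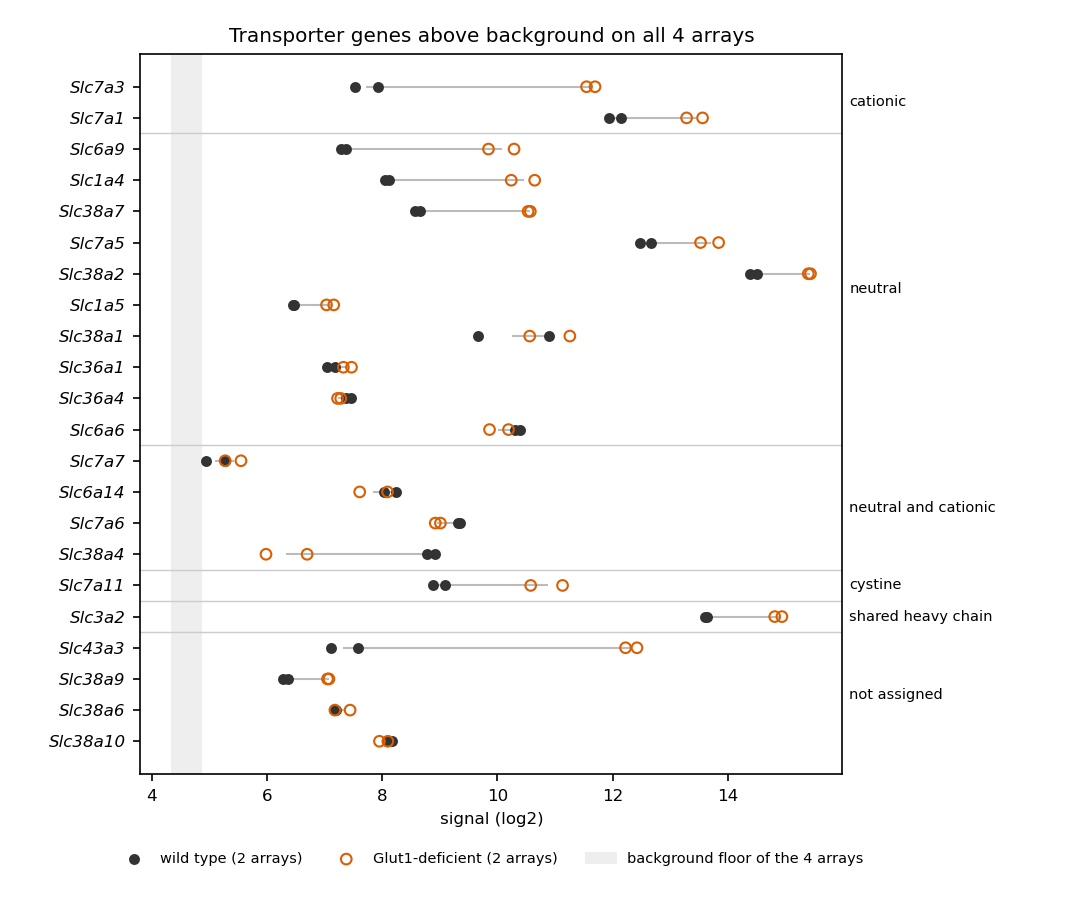
Log2 signal (horizontal axis) of the 22 transporter genes above background on all 4 arrays, by substrate group. Filled points are the 2 wild-type arrays, open points the 2 Glut1-deficient arrays, lines join the group means and the grey band spans the background floors from 4.36 to 4.87. Slc43a3, Slc7a3 and Slc38a4 show wide gaps between genotypes, and the arrays of Slc38a1 overlap.

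Of the 3 genes of cationic carriers 2 rose and none fell (median log2 fold change 1.38). Slc7a3, which encodes CAT3, a carrier of lysine, arginine and ornithine, measured 7.93 and 7.53 in wild type and 11.70 and 11.55 in deficient cells. Both deficient arrays stood far above both wild-type arrays, and the gene rose 14.8-fold (log2 fold change 3.89, SE 0.16, limma adjusted p = 0.00219). Slc7a1, which encodes CAT1 with the same substrates, measured 11.93 and 12.15 against 13.56 and 13.28. It rose by 1.38 (SE 0.14, limma adjusted p = 0.0125), with no overlap between genotypes. Dropping wild-type replicate 1 gave Slc7a1 an adjusted p of 0.0517, and dropping Glut1-deficient replicate 1 gave 0.0607 (0.00863 to 0.0814 over the alternatives), so both ended its call. Slc7a2, which encodes CAT2, was not above background on any array, at 4.11 and 4.15 against 4.24 and 4.33.

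Among the 20 genes of neutral carriers 6 rose, none fell and 14 were not called (median log2 fold change 0.10). The 6 fell into exchangers, sodium-coupled carriers and a lysosomal exporter. Slc6a9, the glycine carrier GlyT1, measured 7.37 and 7.29 in wild type and 10.29 and 9.85 in deficient cells, a log2 fold change of 2.74 (SE 0.17, limma adjusted p = 0.00479). Its second, dim row was below background on all arrays and had a log2 fold change of -0.33 (adjusted p = 0.136). Slc1a4, the exchanger ASCT1 of alanine, serine and cysteine, measured 8.04 and 8.11 against 10.65 and 10.24 and rose by 2.37 (SE 0.16, limma adjusted p = 0.00523). For both genes the lower deficient array was more than 2 log2 units above the higher wild-type array.

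Slc1a5 encodes ASCT2, the relative of ASCT1 that takes up glutamine. It measured 6.47 and 6.46 against 7.16 and 7.04 and rose by 0.64 (SE 0.10, limma adjusted p = 0.0280). This was the smallest called change of the set, and it was lost whichever array was left out (adjusted p = 0.137 and 0.133 for the wild-type arrays, 0.106 and 0.0593 for the deficient arrays). Over all alternatives its adjusted p ranged from 0.0189 to 0.137.

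Slc7a5 is the light chain of LAT1, the exchanger of large neutral amino acids such as leucine. It measured 12.47 and 12.66 against 13.84 and 13.53, a log2 fold change of 1.11 (SE 0.15, limma adjusted p = 0.0194). The call ended when wild-type replicate 1 (adjusted p = 0.0841), wild-type replicate 2 (0.0554) or Glut1-deficient replicate 1 (0.0775) was dropped, and the alternatives spanned 0.0128 to 0.100. The other large neutral carriers Slc7a8, Slc43a1 and Slc43a2 lay at or below background on all arrays and had log2 fold changes from -0.07 to 0.15.

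Slc38a7 encodes SNAT7, which exports glutamine and asparagine from the lysosome. It measured 8.57 and 8.65 in wild type and 10.53 and 10.57 in deficient cells. The replicates lay within 0.1 of each other in both genotypes, and the gene rose by 1.94 (SE 0.09, limma adjusted p = 0.00311). Slc38a2, or SNAT2, the system A carrier of small neutral amino acids, measured 14.39 and 14.51 against 15.43 and 15.40 and rose by 0.97 (SE 0.10, limma adjusted p = 0.0123). Dropping wild-type replicate 1 or Glut1-deficient replicate 1 ended its call (adjusted p = 0.0671 each time), and the alternatives spanned 0.00870 to 0.0822.

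Slc38a1, the glutamine carrier SNAT1, measured 10.90 and 9.66 in wild type and 10.56 and 11.26 in deficient cells. The wild-type arrays differed from each other more than the group means did, and the genotypes overlapped. Its log2 fold change was 0.63 with a 95% confidence interval from -0.51 to 1.78 (limma adjusted p = 0.524), an interval that holds both 0 and the 0.97 of Slc38a2. The taurine carrier gene Slc6a6 measured 10.31 and 10.39 against 9.86 and 10.19, a log2 fold change of -0.32 (SE 0.14, limma adjusted p = 0.274). The proton-coupled carrier genes Slc36a1 and Slc36a4 had log2 fold changes of 0.29 and -0.16 (limma adjusted p = 0.213 and 0.433). The remaining 10 neutral carrier genes lay at or below background on every array, with log2 fold changes from -0.18 to 0.23. Besides the 3 large neutral carriers these were the system N genes Slc38a3 and Slc38a5, the branched-chain and proline carrier gene Slc6a15, and Slc6a20a, Slc7a10, Slc7a12 and Slc36a2.

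Of the 4 carriers that take both neutral and cationic amino acids none was called higher and 1 fell (median log2 fold change -0.33). Slc38a4, the system A carrier SNAT4 and an imprinted gene in mice, measured 8.93 and 8.77 in wild type and 5.99 and 6.70 in deficient cells. It was the only called fall among the 47 genes, 5.68-fold (log2 fold change -2.51, SE 0.24, limma adjusted p = 0.0110). The deficient arrays differed from each other by more than the wild-type arrays, and both stayed above background. Slc7a6, the light chain of the exchanger y+LAT2, measured 9.31 and 9.35 against 8.92 and 9.01 (log2 fold change -0.36, limma adjusted p = 0.0956). Slc7a7, the light chain of y+LAT1, measured 5.28 and 4.95 against 5.28 and 5.55 (0.30, limma adjusted p = 0.382). Slc6a14, the sodium- and chloride-driven carrier ATB0,+, measured 8.24 and 8.04 against 7.61 and 8.09 and overlapped between genotypes (-0.29, limma adjusted p = 0.476).

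In the cystine group 1 of 3 genes rose. Slc7a11, or xCT, which takes up cystine against the release of glutamate, measured 9.10 and 8.89 in wild type and 10.58 and 11.13 in deficient cells. The genotypes did not overlap, and the gene rose by 1.86 (SE 0.20, limma adjusted p = 0.0146). Melanocytes are also known to express Slc7a11, and the melanocyte marker sum, given above, was higher on both deficient arrays. Its part in the Slc7a11 value was not tested. The kidney and gut cystine carrier, made of Slc7a9 and the heavy chain Slc3a1, was dim. Slc7a9 lay at or below background on all arrays, and Slc3a1 measured 4.54 and 4.37 against 4.22 and 4.35.

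Slc3a2 encodes 4F2hc (CD98), the heavy chain that carries Slc7a5, Slc7a6, Slc7a7, Slc7a8, Slc7a10 and Slc7a11 to the membrane. It measured 13.60 and 13.64 in wild type and 14.94 and 14.81 in deficient cells, a rise of 1.26 (SE 0.10, limma adjusted p = 0.00720) that was called whichever array was left out. Of its 6 light chains, Slc7a5 and Slc7a11 rose, Slc7a6 and Slc7a7 were above background and not called, and Slc7a8 and Slc7a10 were at or below it.

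None of the 6 genes of anionic carriers was above background on any array. Slc1a1, Slc1a2, Slc1a3, Slc1a6, Slc1a7 and Slc7a13 had log2 fold changes from -0.05 to 0.12. Differences in these glutamate and aspartate carriers were thus not detectable with these arrays.

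Among the 10 genes without an assigned substrate, 2 rose. Slc43a3, the nucleobase carrier, measured 7.58 and 7.11 in wild type and 12.22 and 12.42 in deficient cells. Its rise of 31.6-fold (log2 fold change 4.98, SE 0.18, limma adjusted p = 0.00208) was larger than that of any other gene in the set. Slc38a9, the lysosomal arginine sensor that signals to mTORC1, measured 6.28 and 6.37 against 7.05 and 7.08 and rose by 0.74 (SE 0.09, limma adjusted p = 0.0189). The arrays were close within each genotype, but the call was lost whichever array was left out (adjusted p = 0.107 and 0.0782 for the wild-type arrays, 0.0833 and 0.0615 for the deficient arrays; range over the alternatives 0.0129 to 0.107). Slc38a6 and Slc38a10, both above background on all arrays, had log2 fold changes of 0.12 and -0.10 (limma adjusted p = 0.681 and 0.716). Slc7a4 was above background on 1 array, with a log2 fold change of 0.02, and Slc7a14, Slc7a15, Slc36a3, Slc38a8 and Slc38a11 on none, with their log2 fold changes from -0.17 to 0.03.

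**Figure D2:**
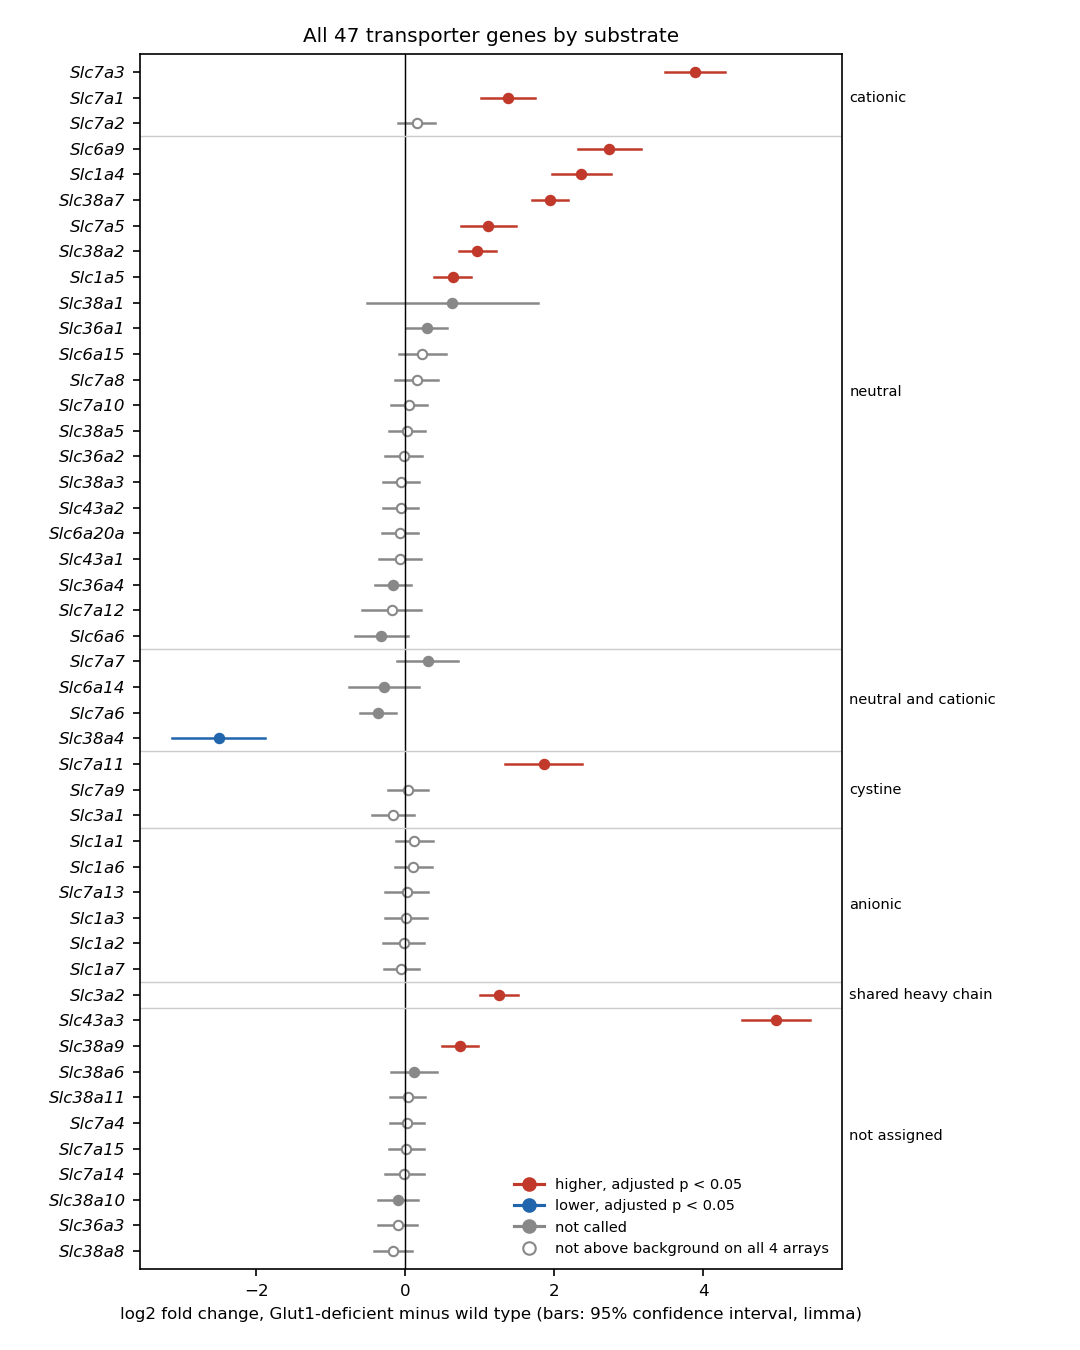
Log2 fold change (Glut1-deficient minus wild type) with its 95% confidence interval for all 47 genes, grouped by substrate. Red genes were called higher, blue lower and grey not called, and open circles mark genes not above background on all 4 arrays. The 12 rises spread over the cationic, neutral, cystine, heavy chain and unassigned groups, the 6 anionic genes cluster at 0, and Slc38a4 stands alone on the left.

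By family, 4 of 15 Slc7 genes rose (Slc7a1, Slc7a3, Slc7a5 and Slc7a11), 3 of 11 Slc38 genes rose and 1 fell, and 2 of 7 Slc1 genes rose. Of all rows tested, by comparison, 4.11% were called higher and 3.11% lower. At or below background on all arrays were 8 of the Slc7, 4 of the Slc38 and 5 of the Slc1 genes. In the Slc3, Slc6 and Slc43 families 1 gene each rose, of 2, 5 and 3 measured, and none of 4 Slc36 genes was called. In RefSeq gene order (GRCm38.p6), Slc38a1, Slc38a2 and Slc38a4 follow each other on chromosome 15 with no protein-coding gene between them. Within this run Slc38a2 rose by 0.97, Slc38a4 fell by 2.51 and Slc38a1 was not called. On chromosome 2, Slc43a1 and Slc43a3 are separated by 1 protein-coding gene, Rtn4rl2, which encodes a Nogo receptor homologue. Slc43a1 and Rtn4rl2 were at or below background on all arrays, with log2 fold changes of -0.07 and -0.00415, beside the 4.98 of Slc43a3. Slc36a1, Slc36a2 and Slc36a3 are likewise consecutive on chromosome 11, and none was called.

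Leaving out each array in turn kept 8 of the 13 calls in all 4 fits: Slc43a3, Slc7a3, Slc6a9, Slc1a4, Slc38a7, Slc7a11, Slc3a2 and the fall of Slc38a4. Slc7a1, Slc38a2 and Slc7a5 were called in some of these fits, and Slc1a5 and Slc38a9 in none. The direction of all 13 was the same in each fit. The number of called genes was 8 when wild-type replicate 1 was dropped and 10 for wild-type replicate 2, and it was 8 and 11 when the first and the second deficient array were dropped. When every row of the table was tested, control rows included, the calls of Slc43a3, Slc7a3 (adjusted p = 0.0412 each) and Slc38a7 (0.0463) held and the other 10 were lost, with adjusted p from 0.0516 to 0.128.

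**Figure D3:**
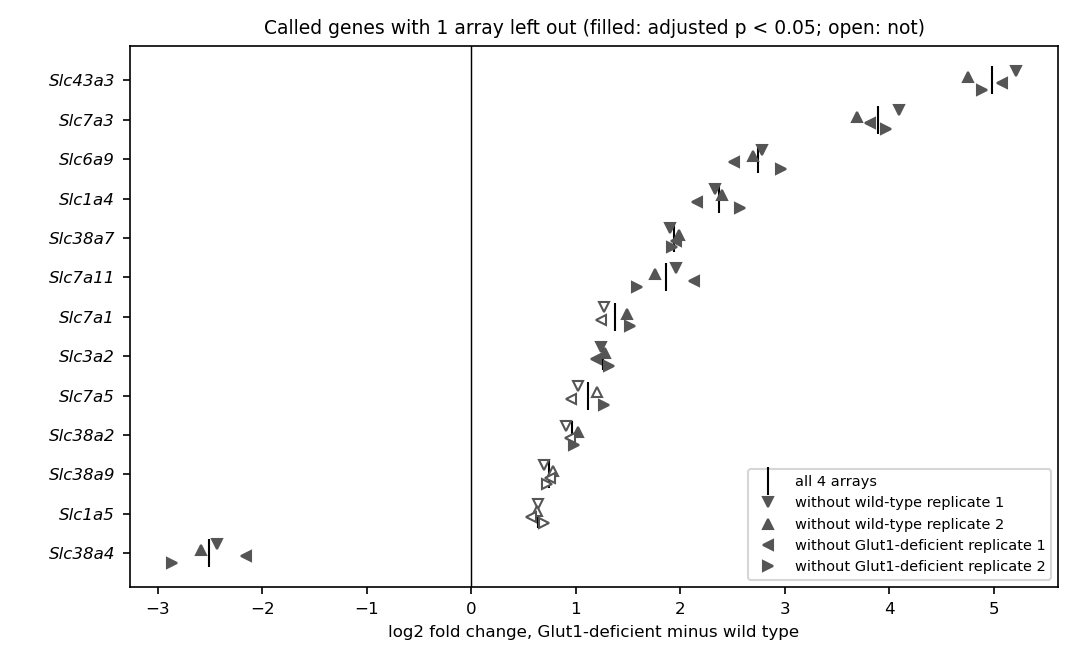
Log2 fold change of the 13 called genes with all 4 arrays (vertical bar) and with 1 array left out (triangles, 1 direction per array left out). Filled triangles mark adjusted p under 0.05 and open ones do not. The folds keep their sign throughout, and open triangles appear for Slc7a1, Slc7a5, Slc38a2, Slc38a9 and Slc1a5.

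Promoter sequences of 34 of the 47 genes were found in the RefSeq promoter table (GRCm38.p6), as 47 windows (some genes have several) of 300 bases from 250 before to 50 after a transcription start. The other 13 genes (Slc1a5, Slc6a6, Slc6a15, Slc7a2, Slc7a3, Slc7a4, Slc7a5, Slc7a12, Slc7a13, Slc36a2, Slc38a1, Slc38a3 and Slc43a3) were not searched. The windows were searched on both strands for TGATGNAA, the element bound by dimers of C/EBP and ATF proteins, because the called genes include known Atf4 targets. The element was found in 4 of the 47 windows, belonging to 3 genes, against 3.97% of all 32851 windows in the table. Stretches of the 2 rising genes and of 1 uncalled gene are printed to show where the element lies, 5′ to 3′ on the gene's strand, with matches in capitals. In Slc7a11 the element occurred at -66 to -59 from the start and again on the opposite strand at -47 to -40. In Slc1a4 a match on the opposite strand began at -4 and ran over the start. Slc7a7, which was not called, held TGATGAAA at -141 and TGATGCAA at -1, and the latter was counted a second time in an overlapping window. The stretches are chr3:50443614-50443719, chr11:20332710-20332757 and chr14:54417938-54418125, all on the minus strand.
Slc7a11: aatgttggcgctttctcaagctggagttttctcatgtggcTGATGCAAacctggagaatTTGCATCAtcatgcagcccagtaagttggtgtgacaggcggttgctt
Slc1a4: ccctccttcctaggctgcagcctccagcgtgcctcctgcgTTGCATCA
Slc7a7: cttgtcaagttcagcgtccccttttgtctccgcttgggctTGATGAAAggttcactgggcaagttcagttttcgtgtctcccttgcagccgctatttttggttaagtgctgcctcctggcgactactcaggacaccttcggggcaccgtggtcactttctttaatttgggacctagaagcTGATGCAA

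The same windows were searched for TGACNNNGC, the core of the antioxidant response element bound by Nrf2, since Slc7a11 is a known Nrf2 target. It was found in 8 of 47 windows, of 6 genes, against 12.4% of all windows. The 6 were Slc6a9 with 2 separate starts, Slc7a1 and Slc38a2, all of which rose, and Slc7a6, Slc36a1 and Slc43a1, which were not called. In Slc7a6 the same site was counted a second time in an overlapping window. Slc7a11, the gene that prompted this search, held no match to the core. None of the 3 windows of Slc38a4 held either motif. The stretches of the rising genes are shown with the match in capitals, at chr15:96699729-96699795 (minus strand), chr4:117849264-117849349 and chr4:117855462-117855546 (plus strand) and chr5:148399905-148399955 (minus strand).
Slc38a2: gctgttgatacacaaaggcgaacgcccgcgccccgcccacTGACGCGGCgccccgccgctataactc
Slc6a9, first start: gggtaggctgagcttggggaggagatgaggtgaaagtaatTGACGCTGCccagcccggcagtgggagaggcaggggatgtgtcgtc
Slc6a9, second start: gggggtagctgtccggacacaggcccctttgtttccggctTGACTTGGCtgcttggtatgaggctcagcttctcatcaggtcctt
Slc7a1: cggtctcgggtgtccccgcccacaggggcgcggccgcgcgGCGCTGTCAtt

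Carriers outside these families were examined in 3 lists, chosen with earlier results of these data known. Of all rows tested, 4.11% were called higher and 3.11% lower. Of 15 measured carriers of the cell surface and synaptic vesicles 1 rose and 14 were not called (median log2 fold change 0.04). The riser was Slc6a8, a creatine carrier, at 10.01 and 10.19 against 12.30 and 11.60 (log2 fold change 1.85, SE 0.24, limma adjusted p = 0.0202). Dropping wild-type replicate 1 or 2 ended the call (adjusted p = 0.0747 and 0.0561, with 0.0112 to 0.101 over the alternatives). In 11 of the 15 genes no array was above background, among them the glycine carrier gene Slc6a5, while the aromatic amino acid carrier gene Slc16a10 was above it and had a log2 fold change of 0.36 (limma adjusted p = 0.277).

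Of 8 carriers of the lysosomal membrane 3 rose and 5 were not called (median log2 fold change 0.33). Slc17a5, the sialic acid exporter sialin, measured 9.60 and 9.79 in wild type and 11.11 and 11.31 in deficient cells and rose by 1.52 (SE 0.12, limma adjusted p = 0.00754). Ctns, the cystine exporter cystinosin, measured 8.54 and 8.66 against 9.86 and 9.52 and rose by 1.09 (SE 0.15, limma adjusted p = 0.0206). Slc15a4, a histidine and peptide carrier, measured 8.90 and 8.91 against 9.39 and 9.40 and rose by 0.49 (SE 0.09, limma adjusted p = 0.0416). Without 1 array, Slc17a5 stayed called in all 4 fits. Ctns was no longer called when wild-type replicate 1, wild-type replicate 2 or the first deficient array was dropped (adjusted p = 0.0888, 0.0661 and 0.0699; range over the alternatives 0.0135 to 0.104). Slc15a4 was lost in all 4 fits (adjusted p = 0.206, 0.186, 0.129 and 0.101; range 0.0282 to 0.206). The Slc15a4 call was also lost with the replicate number as a block (adjusted p = 0.0948) and with trend moderation (0.0539), each of which left 2 lysosomal carriers called. Slc66a1, the exporter of cationic amino acids (log2 fold change 0.16), and Mfsd12, which takes cysteine into the lysosome (-0.00218), were above background and not called.

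Of 14 genes of mitochondrial carriers 1 rose, 1 fell and 12 were not called (median log2 fold change 0.09). Slc25a39, which supplies mitochondria with glutathione, measured 9.40 and 9.33 against 10.14 and 10.19 and rose by 0.80 (SE 0.09, limma adjusted p = 0.0163). Sfxn2, a sideroflexin, measured 8.63 and 8.84 against 7.94 and 8.16 and fell by 0.68 (SE 0.13, limma adjusted p = 0.0451). Both calls were lost whichever array was left out (adjusted p from 0.0548 to 0.0836 for Slc25a39 and from 0.0727 to 0.179 for Sfxn2), within ranges over all alternatives of 0.0114 to 0.0942 and 0.0292 to 0.179. The aspartate-glutamate carrier genes Slc25a12 and Slc25a13 had log2 fold changes of -0.27 and -0.21, and the serine carrier gene Sfxn1 of -0.04, none of them called.

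Among 12 measured carrier partners and amino acid sensors 3 rose and 9 were not called (median log2 fold change 0.20). That was 25% called higher, against 4.11% of all rows, in a list also chosen with earlier results known. Lgals3, a galectin that binds the CD98 glycoprotein, measured 6.57 and 6.68 against 7.94 and 8.14 (log2 fold change 1.41, SE 0.12, limma adjusted p = 0.00756). Nedd4l, a ubiquitin ligase that acts on membrane carriers and channels, measured 9.57 and 9.60 against 10.82 and 10.67 (1.16, SE 0.10, limma adjusted p = 0.00866). Its adjusted p was 0.0501 when wild-type replicate 1 was dropped and 0.0524 when the first deficient array was, in a range from 0.00631 to 0.0697. Flcn, or folliculin, a regulator of lysosomal amino acid signalling, measured 5.49 and 5.47 against 6.09 and 6.06 (0.59, SE 0.09, limma adjusted p = 0.0274). It was lost whichever array was left out (adjusted p from 0.0704 to 0.140; range over the alternatives 0.0187 to 0.140). With the replicate block its adjusted p was 0.0568. The leucine sensor gene Sesn2 had a log2 fold change of 1.17 and was not called (limma adjusted p = 0.0602), and the arginine sensor genes Castor1 and Castor2 had -0.49 and -0.32 (0.124 and 0.160).

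Outside transport, 20 of 25 measured regulators and targets of the amino acid response rose, none fell and 5 were not called (median log2 fold change 1.18). The 5 were Sesn2, Atf3, Cebpb, Cebpg and Ddit4, with log2 fold changes of 1.17, 0.85, 0.56, 0.45 and 0.03. In the list as a whole, the called share was far from that of all rows. The called genes made up 80% of the list, against 4.11% of all rows called higher. This list was chosen with earlier results of these data known. Ddit3, Stc2, Chac1 and Cth rose by 4.77, 2.45, 2.27 and 2.44 on the log2 scale. Ddit3 had 2 rows, and only the brighter is given here. Atf4 itself, named after its values were seen, measured 10.73 and 10.77 against 11.84 and 11.71 (log2 fold change 1.03, SE 0.10, limma adjusted p = 0.0114). It was called in only 1 of the 4 fits without an array, the one without Glut1-deficient replicate 2 (range over the alternatives 0.00807 to 0.0783). Of the 25, 10 were called when wild-type replicate 1 was dropped, 11 for wild-type replicate 2, and 9 and 18 for the first and the second deficient array. These genes share arrays with the transporters, and several transporters, such as Slc7a11, Slc3a2 and Slc7a5, are commonly counted among the same targets.

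**Figure D4:**
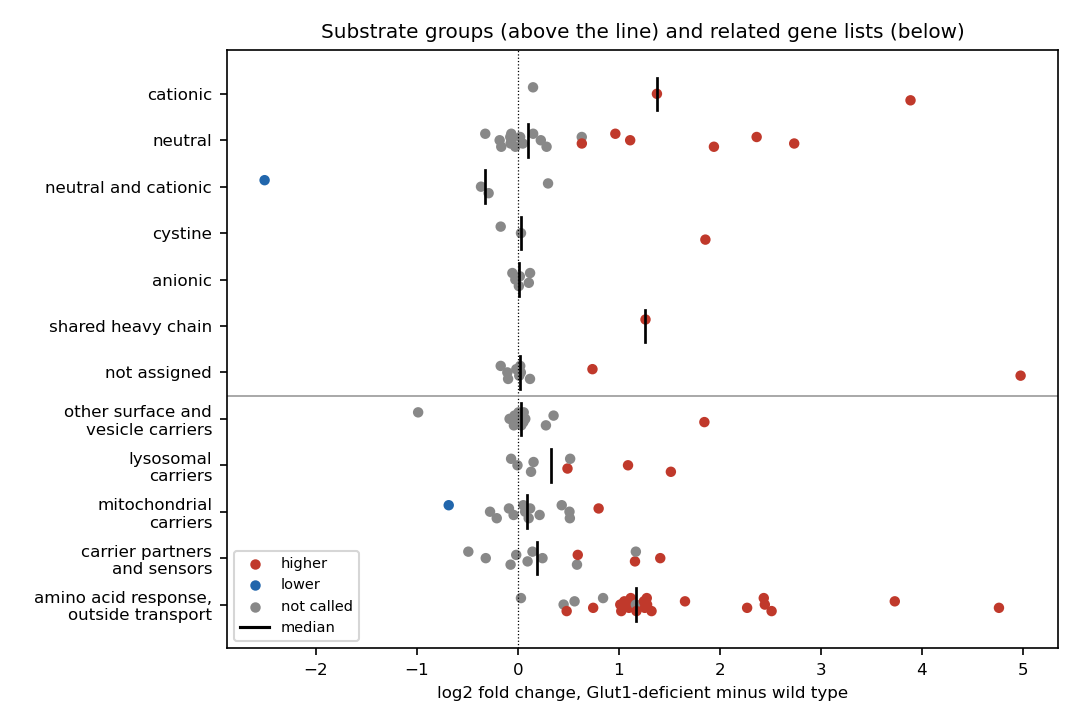
Log2 fold change (Glut1-deficient minus wild type) of each gene in the substrate groups (above the grey line) and in the 5 related lists (below it), coloured by call, with the median of each as a black bar. The amino acid response list lies to the right with a median of 1.18. The cationic median is 1.38, and the 1 heavy chain gene lies at 1.26. The medians of the neutral, cystine and anionic groups lie between 0.02 and 0.10. At or below background on all arrays were 10 of the 20 neutral and all 6 anionic genes. In the response list 24 of 25 genes were above background on all arrays. The called cystine gene stands apart from the rest of its group, and no anionic gene was called. Among neutral genes the smallest called change (Slc1a5, 0.64) lies beside the uncalled Slc38a1 (0.63).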

How the data were processed

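The authors deposited log2 signals for each transcript cluster, which per the labels are gene-level SST-RMA signals. The submitters' processing notes name Affymetrix Expression Console and RMA, and their versions and annotation are not given in the sources used. RMA equalises array distributions, so a shift shared by most genes is removed, and folds of SST-RMA may differ from those of plain RMA. Of 72688 rows, 30604 carried exactly 1 gene symbol in the platform table, with symbols updated through Entrez identifiers to RefSeq (22818 rows matched, 827 symbols changed). A gene with several rows was represented by its brightest (mean of the 4 arrays).

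Genotypes were compared with limma 3.58.1 in R 4.3.3 (lmFit and eBayes, two-sided, Benjamini-Hochberg over 30604 rows, threshold 0.05). The fit was tested on simulated data. The members, substrate groups and lists were chosen with earlier results of these data known. Named are all called members, the 6 uncalled members above background with the largest changes, partner chains, up to 4 called genes per list and the target; other genes were named after their values were seen. Symbols not matched to a row (1 surface carrier, 2 partners or sensors, 1 response gene) were not used. The labels tie no replicate number to an animal or day. A replicate block, other normalizations, other row sets and moderation, and fits without each array were the alternatives.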

Additional observations from a re-analysis of the deposited data

How the results depend on the processing

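Quantile normalization, median centring, trend or robust moderation, the replicate block, the crossed block and the rows at or above the median mean each kept all 13 transporter calls and added none; the last tested 22 of the 47 genes. With every row of the table tested, 3 members were called higher and 0 lower. By group these were 1 cationic, 1 neutral, 1 unassigned, 0 cystine, 0 heavy chain and 0 neutral and cationic genes. In the lists 3 amino acid response genes and 0 of the surface, lysosomal, mitochondrial and partner genes were then called; the cause was not tested. With 1 array left out 7 to 10 members were higher and 1 was lower: 1 to 2 cationic, 3 to 5 neutral and 1 unassigned gene rose, as did 0 to 1 surface, 1 to 2 lysosomal, 0 mitochondrial, 1 to 3 partner and 9 to 18 response genes, while 0 mitochondrial genes fell. The 1 lower mitochondrial gene became 0 under quantile normalization, median centring, trend moderation and the crossed block. Among the rows at or above the median mean 5 partners or sensors were called higher. The dimmer row of Slc6a9 had a log2 fold change of -0.33 in place of 2.74. Deviations of same-numbered arrays correlated at -0.233 across 30604 rows. With 2 arrays per genotype this rests on a single contrast within each genotype, so it cannot decide whether equal numbers pair the arrays. The replicate block called 1849 rows against 2209, with 12 members higher and 1 lower. The calls of Slc15a4, Flcn and the response gene Psat1 were lost with it. Testing every row called 60 of the rows with 1 gene symbol, and dropping an array called between 314 and 1214 (389 and 566 for the wild-type arrays, 314 and 1214 for the deficient arrays). The crossed pairing, chosen after seeing the data, called 2039 rows and 2 lysosomal carriers. The 23 members at background on all arrays carry no usable fold.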
